A study of Mus musculus with 23 samples.

Results

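Blood cells and their relatives make up a small share of the fetal mouse heart, and their transcripts can be followed in whole-heart RNA. Described here are 35 genes of macrophages, other myeloid cells, blood progenitors and platelets, chosen by symbol from a count table of 23512 features, in which all 35 have a row (Spi1 is listed there as Sfpi1). Of these, 33 passed the filter on low counts and entered the test. Cd14 and Mpo did not.

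Macrophages enter the embryonic heart from the yolk sac and the fetal liver, survive on signals through the receptor encoded by Csf1r, clear dying cells and secrete complement C1q. Lysozyme M, encoded by Lyz2, and its copy lysozyme P, encoded by Lyz1, degrade bacterial cell walls. Platelets are shed by megakaryocytes, which carry the fibrinogen receptor subunit encoded by Itga2b and store chemokines such as Pf4 and Ppbp in their granules.

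RNA came from whole hearts at embryonic day 13.5, all of strain C57BL/6. The 7 triple-knockout hearts were GRK2 fl/fl, GRK5 fl/fl and GRK6 KO/KO with the Nkx2.5Cre transgene. The 8 haploinsufficient hearts carried GRK2 fl/wt with the same GRK5 fl/fl, GRK6 KO/KO and Nkx2.5Cre. The 8 wild-type hearts were wt/wt at all of these genes and had no Cre, so both GRK-deficient groups differ from wild type in Cre and in Grk5 and Grk6 as well as in Grk2. Cre under Nkx2.5 control acts in cardiac progenitors and their descendants, whereas the GRK6 allele is labelled as a knockout outright. The GRK genes encode kinases that switch off active G-protein-coupled receptors, among them chemokine receptors of leukocytes.

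Total counts ran from 6657734 to 13864731 in triple-knockout, from 1757257 to 11025358 in haploinsufficient and from 3838166 to 14050559 in wild-type libraries. Levels are given as CPM, counts scaled to library size. By the limit of 3 counts, which covers counting error only, a count of 0 allows 0.214 CPM in the library of most counts and 1.71 CPM in that of fewest. The 4 heart muscle genes Myh6, Tnnt2, Actc1 and Myl7 were abundant in every library. Library IDs form a first set (1 to 12) and a second set (19 to 30), each holding all 3 groups, and the set was a term in the model. Genes of lung, foregut, liver and thymus also varied: their mean log2 level relative to the wild-type mean exceeded 1.5 in 3 of 7 triple-knockout, 5 of 8 haploinsufficient and 1 of 8 wild-type libraries. Whether every replicate was an embryo of its own is not in the labels. A p-value therefore reflects how much these libraries varied, and that variation may be partly technical. In whole-heart RNA, fewer cells of a type and less RNA per cell cannot be told apart.

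In the triple knockout both lysozymes, 2 cytokine receptor chains and the platelet integrin gene fell, while the genes that mark the macrophage lineage at large, Csf1r, Cx3cr1, the C1q chains, Tyrobp and Spi1, did not pass the test and had fold changes near 0 or above. Against wild type, 5 of the 33 tested members fell (Lyz1, Lyz2, Crlf2, Csf2ra and Itga2b) and 0 rose, by edgeR at an adjusted p under 0.05. Of all 13941 genes tested in this comparison, 1.18% were called, 0.689% as lower and 0.488% as higher. In the haploinsufficient hearts against wild type, 2 of 33 fell (Lyz1 and Csf2ra) and 0 rose, where 2.28% of all genes were called, 1.36% as lower and 0.918% as higher. Between the triple knockout and the haploinsufficient hearts edgeR called 0 of 33, where 0.395% of all genes were called, 0.316% as lower and 0.0789% as higher. In that comparison 7 members had an unadjusted p under 0.05, and DESeq2 called 2, Csf1r and Kit. Both comparisons with wild type share the same wild-type libraries, so their values are given side by side and not as support for each other.

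Across the 33 members the log2 fold change of the triple knockout against wild type was positive for 23, with a median of 0.22, where 52.8% of all genes were positive with a median of 0.01. For the haploinsufficient hearts against wild type it was positive for 17, with a median of 0.01, where 52.6% of all genes were positive. For the triple knockout against the haploinsufficient hearts it was positive for 23, with a median of 0.18, where 50.6% of all genes were positive.

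**Figure D1:**
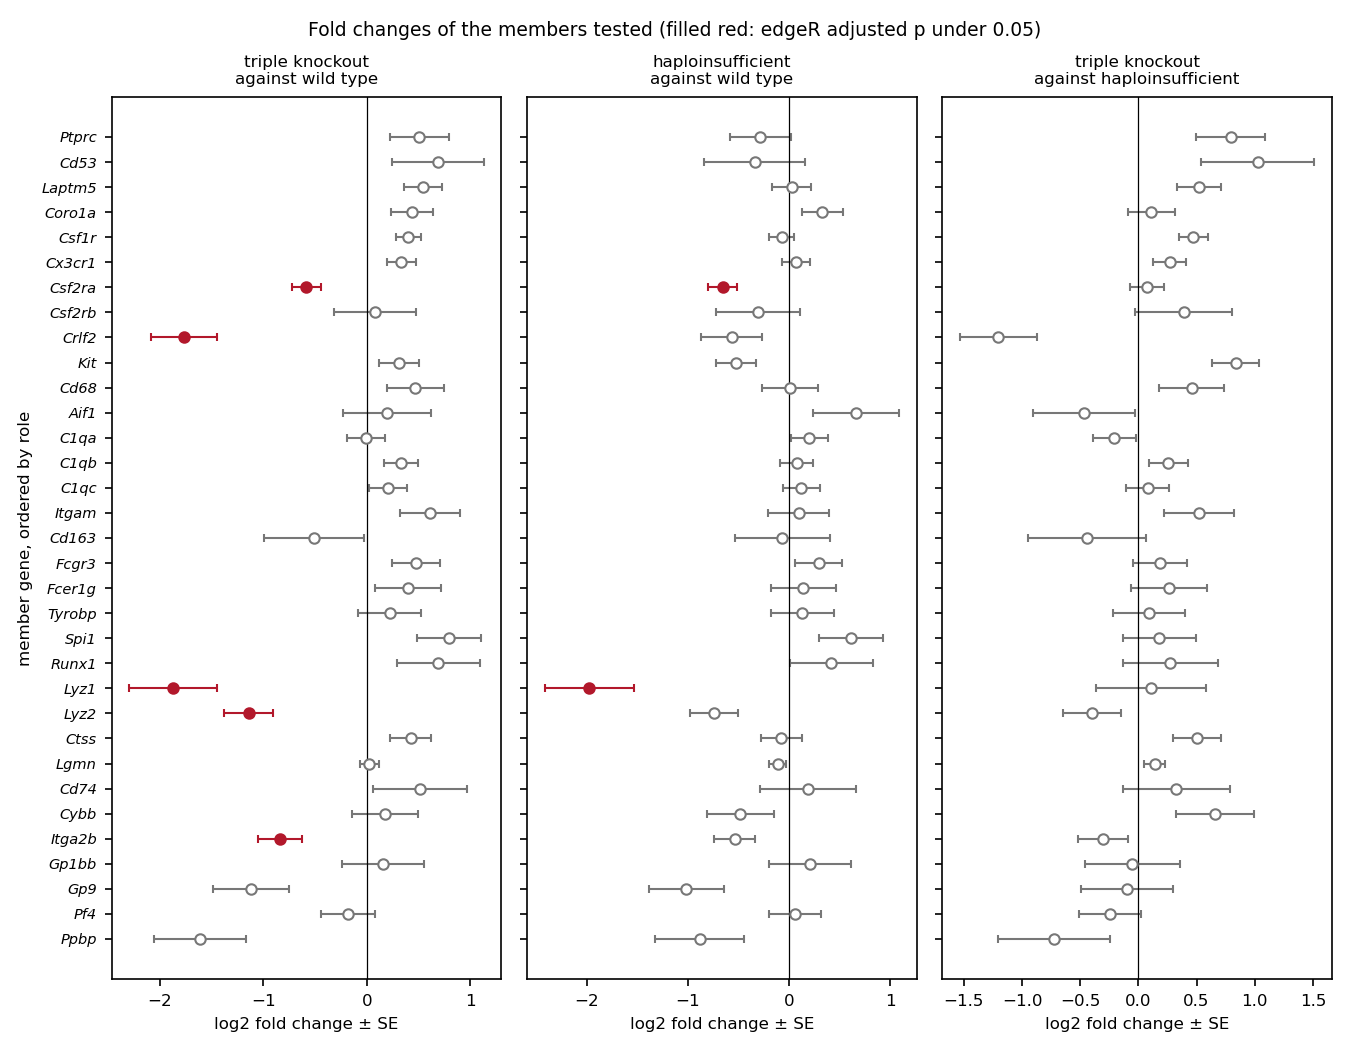
Log2 fold change with its standard error (x axis) for the 33 members tested (y axis, ordered by role) in the 3 comparisons, from the edgeR fit over 23 libraries. Filled red points are members with an adjusted p under 0.05: 5 in the triple knockout against wild type, 2 in the haploinsufficient hearts against wild type and 0 between the GRK-deficient groups.

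Lyz1 and Lyz2 lie side by side on chromosome 10 of mm10, at 117287795 to 117292868 and 117277541 to 117282272 on the minus strand, and are near copies. They share 195 of the 1214 windows of 50 bases, the read length, in the Lyz1 transcript (16.1%), so reads from these windows cannot be given to one gene. The second coding exon shows how close they are. The sequences below, read from GRCm38 (mm10) at chr10:117291029-117291193 for Lyz1 and chr10:117280641-117280805 for Lyz2, both on the minus strand, are 165 bases each, with capitals at the 6 bases that differ.
Lyz1 exon 2: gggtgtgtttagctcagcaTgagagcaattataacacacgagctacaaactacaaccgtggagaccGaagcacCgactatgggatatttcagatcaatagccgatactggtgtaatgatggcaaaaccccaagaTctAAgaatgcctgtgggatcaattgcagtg
Lyz2 exon 2: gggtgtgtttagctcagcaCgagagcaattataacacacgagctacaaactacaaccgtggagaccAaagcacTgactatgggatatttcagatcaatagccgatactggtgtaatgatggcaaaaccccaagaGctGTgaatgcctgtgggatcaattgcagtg
The exons are 96.4% identical, and the longest stretch without a difference runs for 60 bases, longer than a read.

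Lyz1 stood between 0.709 and 2.28 CPM (median 1.30) in triple-knockout, between 0 and 3.27 CPM (median 1.32) in haploinsufficient and between 2.91 and 9.05 CPM (median 4.85) in wild-type libraries. All 7 triple-knockout libraries lay below all 8 wild-type libraries, as did 7 of the 8 haploinsufficient libraries. Lyz1 fell by 1.87 ± 0.42 (SE, log2) in the triple knockout (edgeR adjusted p = 0.0195) and by 1.97 ± 0.44 in the haploinsufficient hearts (edgeR adjusted p = 0.0140). The call in the triple knockout was lost without triple-knockout replicate 2, 3 or 7 (edgeR adjusted p = 0.0606, 0.0650 and 0.0538). It was also lost without the libraries of a high lung, foregut, liver and thymus score, with a log2 fold change of -1.66 (edgeR adjusted p = 0.0879).

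Lyz2, by far the more abundant of the pair, ranged from 4.16 to 11.7 CPM (median 9.51) in triple-knockout, from 4.90 to 27.1 CPM (median 10.3) in haploinsufficient and from 15.1 to 23.2 CPM (median 20.6) in wild-type libraries. The triple-knockout and wild-type ranges did not overlap, whereas haploinsufficient replicate 4 was above every wild-type library. Lyz2 fell by 1.14 ± 0.24 (SE, log2) in the triple knockout (edgeR adjusted p = 0.00965), and kept the call in 23 of 23 fits that each left out 1 library. It was called in 11 of 13 alternatives, among them the sum of both lysozymes. The haploinsufficient log2 fold change was -0.74 ± 0.23 and missed the threshold (edgeR adjusted p = 0.0948). Without haploinsufficient replicate 4 it was -1.04 and passed (edgeR adjusted p = 0.00287).

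With the counts of both lysozymes added, which removes the question of which copy a read belongs to, the sum was 10.5 ± 3.11 CPM (SD, n = 7) in triple-knockout, 13.5 ± 7.73 CPM (SD, n = 8) in haploinsufficient and 25.1 ± 3.65 CPM (SD, n = 8) in wild-type hearts. The sum fell by 1.26 ± 0.24 (SE, log2) in the triple knockout (edgeR adjusted p = 0.00372) and by 0.92 ± 0.24 in the haploinsufficient hearts (edgeR adjusted p = 0.0363). The difference between the GRK-deficient groups was -0.34 ± 0.25 (edgeR adjusted p = 0.527). Of the summed counts, Lyz1 held 90 of 674 in triple-knockout libraries (13.4%, Wilson 95% interval 10.99 to 16.1), 50 of 503 in haploinsufficient libraries (9.94%, 7.62 to 12.9) and 287 of 1492 in wild-type libraries (19.2%, 17.3 to 21.3). These intervals cover the counting error of pooled reads only, not the spread between libraries. Per library that share spread from 6.94 to 17.4% in triple-knockout, from 0 to 15.8% in haploinsufficient and from 13.4 to 31.4% in wild-type hearts, so the groups overlapped. Within a group and ID set, Lyz1 and Lyz2 varied together over the 23 libraries (Pearson r = 0.688, permutation p = 0.0008, adjusted 0.00488 over 8 pairs; Spearman rho = 0.458, permutation p = 0.0291, adjusted 0.0776), and r was 0.606 without the 2 libraries farthest from the median. The part of the shared windows in that relation was not tested. The permutation p-values here and below do not account for the means taken off, and so tend to be too small.

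**Figure D2:**
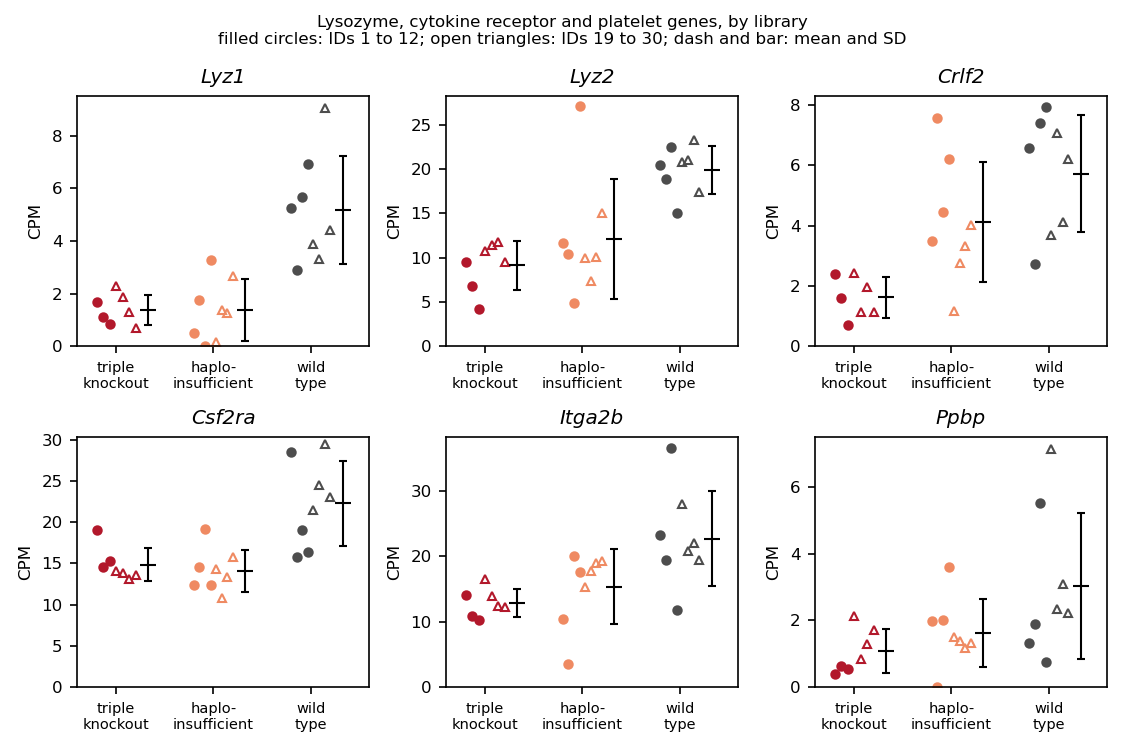
CPM (y axis, from 0) of Lyz1, Lyz2, Crlf2, Csf2ra, Itga2b and Ppbp in each of 7 triple-knockout, 8 haploinsufficient and 8 wild-type libraries (points, shaped by library ID set), with mean and SD. For Lyz1, Lyz2 and Crlf2 every triple-knockout library lies below every wild-type library, whereas the ranges of Csf2ra, Itga2b and Ppbp overlap.

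Among the receptors, Crlf2 had the smallest adjusted p of any member. It encodes the chain that binds thymic stromal lymphopoietin, an epithelial cytokine that acts on dendritic cells, mast cells and lymphocytes, and lies on chromosome 5 of mm10 at 109554709 to 109558993. Its level was 0.694 to 2.43 CPM (median 1.60) in triple-knockout, 1.17 to 7.56 CPM (median 3.74) in haploinsufficient and 2.74 to 7.93 CPM (median 6.39) in wild-type libraries. Every triple-knockout library was below every wild-type library, and the haploinsufficient libraries overlapped both groups. Crlf2 fell by 1.77 ± 0.32 (SE, log2) in the triple knockout (edgeR adjusted p = 0.00238). That call held in 23 of 23 fits without 1 library and in 10 of 12 alternatives. The haploinsufficient value was -0.56 ± 0.30 (edgeR adjusted p = 0.337). The difference of the triple knockout from the haploinsufficient hearts, -1.20 ± 0.33, did not pass either (edgeR adjusted p = 0.0968). Lyz1, Lyz2 and Crlf2 are the 3 of 33 members whose triple-knockout values all lay below wild type, against 0.531% of all genes. None of the 33 did so in the haploinsufficient hearts, against 0.28% of all genes.

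Csf2ra encodes the specific chain of the receptor for granulocyte-macrophage colony-stimulating factor. It was at 13.1 to 19.1 CPM (median 14.1) in triple-knockout, 10.8 to 19.2 CPM (median 13.8) in haploinsufficient and 15.8 to 29.4 CPM (median 22.2) in wild-type libraries. Both GRK-deficient groups overlapped wild type, through triple-knockout replicate 1 and haploinsufficient replicates 3 and 8. Csf2ra fell by 0.58 ± 0.14 (SE, log2) in the triple knockout (edgeR adjusted p = 0.0354) and by 0.66 ± 0.14 in the haploinsufficient hearts (edgeR adjusted p = 0.0112), with 0.07 ± 0.15 between them (edgeR adjusted p = 0.855). In the triple knockout, separate fits gave -0.28 in IDs 1 to 12 (edgeR adjusted p = 0.667) and -0.84 in IDs 19 to 30 (edgeR adjusted p = 0.0242). The difference between the ID sets was not tested. The gene sits near the end of chromosome 19, at 61224402 to 61228418 in mm10, 131847 bases from Grk5, one of the targeted genes, whose floxed allele both GRK-deficient groups carry. It is the only member on that chromosome, and the part of the linked allele in its level was not tested. Csf2rb, the signalling chain that pairs with it, stood at 2.73 ± 1.03 CPM (SD, n = 7) in triple-knockout, 2.098 ± 1.79 CPM (SD, n = 8) in haploinsufficient and 2.70 ± 1.10 CPM (SD, n = 8) in wild-type hearts, with log2 fold changes against wild type of 0.08 ± 0.40 and -0.31 ± 0.41 (edgeR adjusted p = 0.969 and 0.743). It shares 12.3% of its windows with other genes, nearly all with its copy Csf2rb2.

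Csf1r, the receptor for colony-stimulating factor 1 and the best covered of the macrophage receptors, ranged from 47.4 to 66.4 CPM (median 49.1) in triple-knockout, from 23.3 to 50.6 CPM (median 40.4) in haploinsufficient and from 31.7 to 49.6 CPM (median 39.0) in wild-type libraries. The triple-knockout libraries occupied the upper end, with overlap in both directions. The log2 fold changes were 0.40 ± 0.12 for the triple knockout against wild type (edgeR adjusted p = 0.117), -0.07 ± 0.12 for the haploinsufficient hearts against wild type (edgeR adjusted p = 0.796) and 0.47 ± 0.12 between the GRK-deficient groups (edgeR adjusted p = 0.0793). A fit over the triple-knockout and wild-type libraries alone called it higher in the triple knockout, at 0.40 (edgeR adjusted p = 0.0339). DESeq2 called it between the GRK-deficient groups, at 0.47 (DESeq2 adjusted p = 0.0212). Counting DESeq2, that difference was called in 2 of 12 alternatives, and in 1 of 23 fits without 1 library. Of the windows of Csf1r in GENCODE 14.3% are shared with the neighbouring gene Hmgxb3. No gene overlaps its exons in the gene model deposited with the counts.

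Cx3cr1, the fractalkine receptor of resident macrophages, stood at 21.3 ± 4.74 CPM (SD, n = 7) in triple-knockout, 18.2 ± 4.71 CPM (SD, n = 8) in haploinsufficient and 17.1 ± 2.36 CPM (SD, n = 8) in wild-type hearts. Its log2 fold changes against wild type were 0.33 ± 0.14 and 0.07 ± 0.14 (edgeR adjusted p = 0.325 and 0.851). Kit, the receptor for stem cell factor on blood progenitors, mast cells and neural crest derivatives, ran from 14.9 to 31.2 CPM (median 21.7) in triple-knockout, from 7.68 to 18.9 CPM (median 12.3) in haploinsufficient and from 10.6 to 23.3 CPM (median 19.3) in wild-type libraries. The GRK-deficient groups lay on either side of wild type and overlapped it. Its log2 fold change was 0.31 ± 0.19 for the triple knockout against wild type (edgeR adjusted p = 0.614), -0.53 ± 0.20 for the haploinsufficient hearts against wild type (edgeR adjusted p = 0.161) and 0.84 ± 0.20 between the GRK-deficient groups (edgeR adjusted p = 0.0579). DESeq2 called that last difference (DESeq2 adjusted p = 0.00922). Counting DESeq2, it was called in 3 of 12 alternatives, and in 5 of 23 fits without 1 library.

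**Figure D3:**
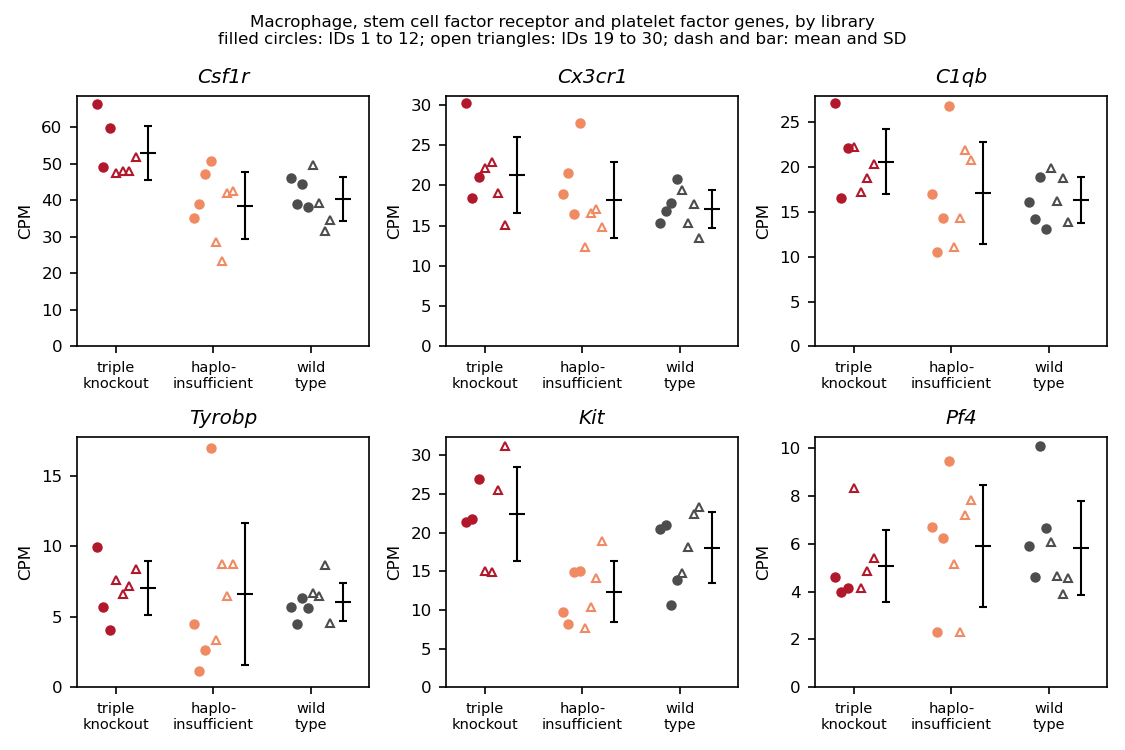
CPM (y axis, from 0) of Csf1r, Cx3cr1, C1qb, Tyrobp, Kit and Pf4 in each of 7 triple-knockout, 8 haploinsufficient and 8 wild-type libraries (points, shaped by library ID set), with mean and SD. The groups overlap for all 6 genes, and haploinsufficient replicate 4 is the highest point for Tyrobp.

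The C1q chains are secreted together as the recognition part of complement and their genes lie together on chromosome 4 of mm10, between 136880145 and 136898844. C1qa averaged 15.2 ± 1.97 CPM (SD, n = 7) in triple-knockout, 17.5 ± 5.34 CPM (SD, n = 8) in haploinsufficient and 15.2 ± 4.91 CPM (SD, n = 8) in wild-type hearts. C1qb averaged 20.6 ± 3.61, 17.1 ± 5.70 and 16.3 ± 2.56 CPM in the triple-knockout, haploinsufficient and wild-type hearts, and C1qc 19.3 ± 3.05, 18.0 ± 5.81 and 16.7 ± 4.70 CPM. Against wild type the triple-knockout log2 fold changes were -0.01 ± 0.19, 0.33 ± 0.16 and 0.20 ± 0.18 for C1qa, C1qb and C1qc (edgeR adjusted p = 0.997, 0.469 and 0.768). The haploinsufficient values were 0.20 ± 0.18, 0.07 ± 0.16 and 0.12 ± 0.18 (edgeR adjusted p = 0.611, 0.864 and 0.772). None of these passed, and the 95% interval of C1qa in the triple knockout ran from -0.37 to 0.36 on the log2 scale. After group and ID set means were taken off, C1qa and C1qc had a Pearson r of 0.521 over the 23 libraries (permutation p = 0.0110, adjusted 0.0220). Spearman rho was 0.485 (permutation p = 0.0206, adjusted 0.0776), and r was 0.637 without the 2 libraries farthest from the median. As these p-values tend to be too small, whether C1qa and C1qc varied together is uncertain. For C1qa and C1qb r was 0.441 (permutation p = 0.0347, adjusted 0.0555), and for C1qa and Csf1r 0.343 (permutation p = 0.110, adjusted 0.147).

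The other macrophage surface genes were low and variable. Itgam, the alpha chain of complement receptor 3, stood at 3.55 to 4.71 CPM (median 4.35) in triple-knockout, 1.00 to 5.24 CPM (median 2.98) in haploinsufficient and 1.54 to 3.50 CPM (median 3.01) in wild-type libraries. The lowest triple-knockout library was just above the highest wild-type library, which is the case for 1 of 33 members and 0.395% of all genes, yet the log2 fold change of 0.61 ± 0.29 did not pass (edgeR adjusted p = 0.431). Of the windows of Itgam in GENCODE 66.3% are shared with the gene model Gm49368. No gene overlaps its exons in the gene model deposited with the counts, and the part of the shared windows in its level was not tested. Cd68, a lysosomal membrane protein of macrophages, had 5.87 ± 1.75, 4.16 ± 2.03 and 4.21 ± 0.853 CPM in the triple-knockout, haploinsufficient and wild-type hearts. Cd163, a haemoglobin scavenger receptor, was the only one of these surface genes besides C1qa with a negative triple-knockout value, -0.51 ± 0.48 (edgeR adjusted p = 0.787), from 80, 57 and 91 counts in the triple-knockout, haploinsufficient and wild-type libraries. Aif1, an actin-bundling protein also called Iba1, ranged from 1.39 to 2.55 CPM in triple-knockout, from 1.00 to 9.31 CPM in haploinsufficient and from 0 to 3.58 CPM in wild-type libraries, and had a log2 fold change of 0.20 ± 0.43 in the triple knockout and 0.66 ± 0.42 in the haploinsufficient hearts (edgeR adjusted p = 0.922 and 0.436). Cd14, a lipopolysaccharide co-receptor, was left out by the filter, with means of 1.26, 1.02 and 0.855 CPM in the triple-knockout, haploinsufficient and wild-type hearts.

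Among the Fc receptor and adaptor genes, Fcgr3 encodes a receptor for immunoglobulin G, Fcer1g the signalling chain it shares with other Fc receptors, and Tyrobp the adaptor DAP12. Fcgr3 averaged 6.04 ± 1.81, 5.27 ± 1.56 and 4.39 ± 1.24 CPM in the triple-knockout, haploinsufficient and wild-type hearts, and Fcer1g 3.76 ± 1.10, 3.15 ± 2.25 and 2.93 ± 1.07 CPM. The triple-knockout log2 fold changes of the 3 genes were 0.48 ± 0.23, 0.40 ± 0.32 and 0.22 ± 0.30, and their haploinsufficient values 0.29 ± 0.23, 0.14 ± 0.32 and 0.13 ± 0.31, none past the test (edgeR adjusted p between 0.452 and 0.872). In the haploinsufficient group Tyrobp ran from 1.16 CPM in replicate 2, the shallowest library, to 17.0 CPM in replicate 4, a wider range than the 4.02 to 9.98 CPM of the triple-knockout and the 4.46 to 8.64 CPM of the wild-type libraries. Fcer1g and Tyrobp were correlated over the 23 libraries after group and set means were taken off (Pearson r = 0.725, permutation p = 0.00279, adjusted 0.00744; Spearman rho = 0.393, permutation p = 0.0641, adjusted 0.120). Without the 2 libraries farthest from the median r was 0.139, so the relation rests on those samples. Of the windows of Fcgr3 9.58% are shared with Fcgr2b.

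Genes carried by leukocytes in general all had positive triple-knockout values, and none passed. Ptprc (CD45, a phosphatase on leukocytes and their progenitors) stood at 4.07 ± 0.791, 2.39 ± 0.983 and 2.88 ± 1.10 CPM in the triple-knockout, haploinsufficient and wild-type hearts. Laptm5, a lysosomal membrane protein, stood at 12.2 ± 2.71, 8.46 ± 1.70 and 8.45 ± 2.70 CPM, and its triple-knockout log2 fold change of 0.54 ± 0.18 had an edgeR adjusted p of 0.198. Coro1a, an actin-binding protein, stood at 13.2 ± 4.81, 12.2 ± 2.90 and 9.84 ± 2.62 CPM, and Cd53, a tetraspanin, at 1.53 ± 0.394, 0.796 ± 0.784 and 0.967 ± 0.455 CPM. They had triple-knockout values of 0.44 ± 0.20 and 0.69 ± 0.44 (edgeR adjusted p = 0.406 and 0.633). Spi1, encoding the myeloid transcription factor PU.1, stood at 2.96 ± 0.898, 2.80 ± 1.46 and 1.77 ± 0.669 CPM, with log2 fold changes of 0.79 ± 0.31 and 0.61 ± 0.32 for the triple-knockout and haploinsufficient hearts against wild type (edgeR adjusted p = 0.288 and 0.317). Runx1, a transcription factor needed for the first blood stem cells, averaged 4.00 ± 1.36, 3.00 ± 2.51 and 2.46 ± 0.923 CPM in the triple-knockout, haploinsufficient and wild-type hearts and had values of 0.69 ± 0.40 and 0.42 ± 0.41 (edgeR adjusted p = 0.580 and 0.631).

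None of the 4 other tested genes of lysosome, oxidase and antigen presentation was called. Lgmn, the lysosomal protease legumain, was the most abundant member at 111 ± 15.2, 101 ± 7.80 and 109 ± 10.8 CPM in the triple-knockout, haploinsufficient and wild-type hearts, and its log2 fold change of 0.03 ± 0.09 in the triple knockout had a 95% interval of -0.15 to 0.20. Ctss, the protease cathepsin S, stood at 12.3 ± 1.53, 8.75 ± 3.80 and 9.22 ± 2.54 CPM, with a triple-knockout value of 0.43 ± 0.20 (edgeR adjusted p = 0.421). Cd74, the invariant chain of class II antigen presentation, and Cybb, the catalytic chain of the phagocyte oxidase, had triple-knockout values of 0.52 ± 0.45 and 0.17 ± 0.32 (edgeR adjusted p = 0.764 and 0.906). Cd74 averaged 2.54, 2.18 and 1.84 CPM and Cybb 3.20, 2.06 and 2.90 CPM in the triple-knockout, haploinsufficient and wild-type hearts. Mpo, the neutrophil granule peroxidase, was near the floor with 33, 7 and 34 counts over the triple-knockout, haploinsufficient and wild-type libraries, and had a count of 0 in 3, 5 and 0 of them.

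Levels can be compared between genes only per length, for which the deposited FPKM values serve. In wild-type hearts Lgmn led at 60.1 ± 6.89 FPKM (SD, n = 8), Lyz2 was the second at 23.6 ± 3.08, and C1qc, C1qb, C1qa and Tyrobp followed at 18.1 ± 5.13, 17.4 ± 2.41, 15.9 ± 5.18 and 15.3 ± 3.08, a run of neighbours that do not differ beyond their spread. In triple-knockout hearts Lgmn again led at 62.1 ± 6.00 FPKM (SD, n = 7), but C1qb (22.6 ± 4.83), C1qc (21.4 ± 4.203), Tyrobp (18.3 ± 5.42), C1qa (16.3 ± 2.097), Csf1r (13.6 ± 2.62) and Pf4 (12.3 ± 3.16) all stood above Lyz2 (10.9 ± 2.69). In haploinsufficient hearts Lyz2 was at 13.5 ± 6.64 FPKM (SD, n = 8), beside Pf4 at 13.7 ± 5.68. The lowest members in wild-type hearts were Mpo, Runx1 and Cd53, at 0.275 ± 0.181, 0.336 ± 0.130 and 0.342 ± 0.163 FPKM.

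**Figure D4:**
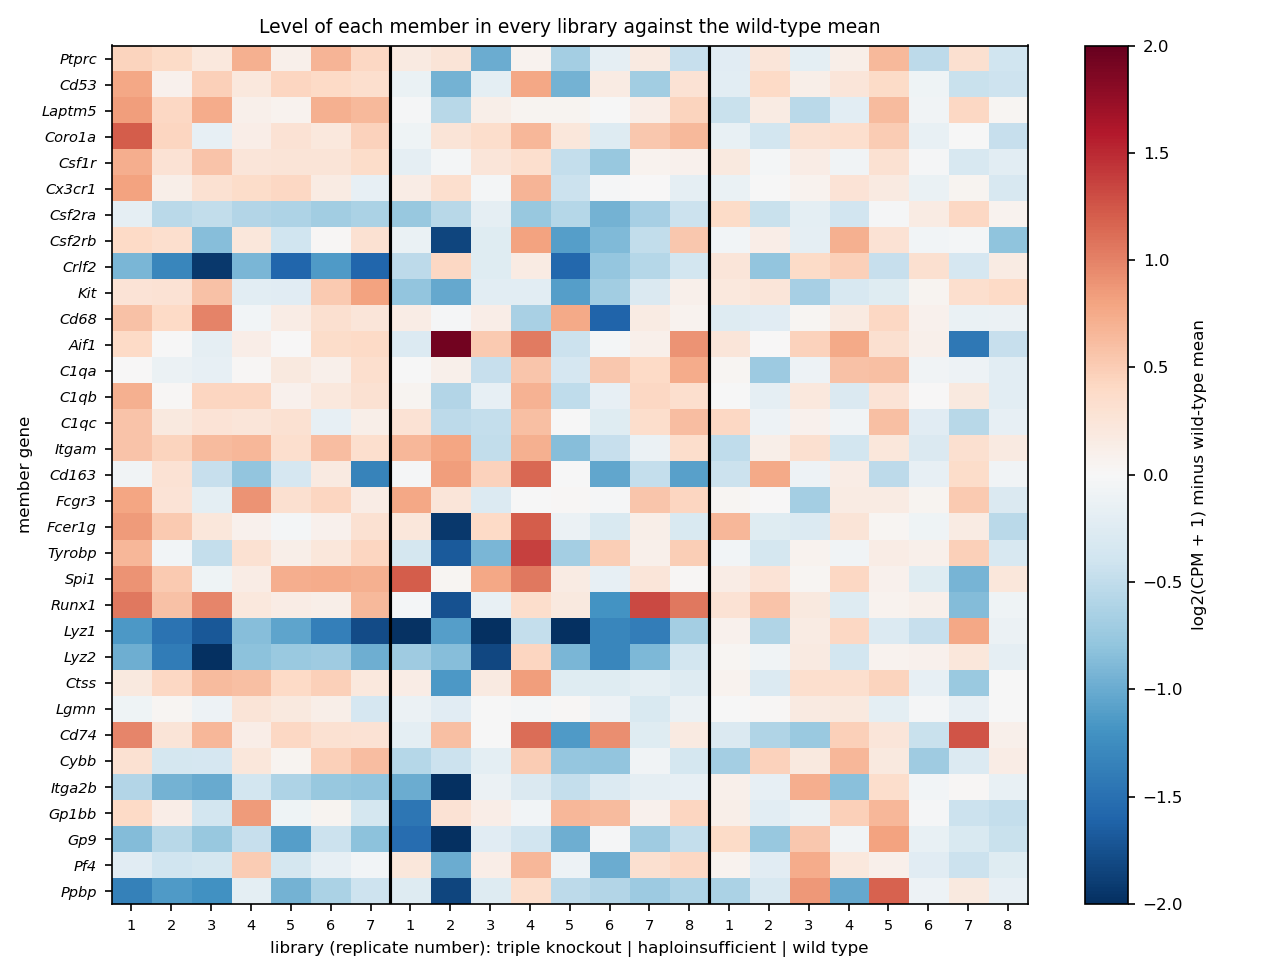
Log2(CPM + 1) minus the wild-type mean (colour, ending at 2 on either side) for the 33 members tested (rows, ordered by role) in each library (columns: triple knockout, haploinsufficient, wild type). Lyz1, Lyz2, Crlf2, Csf2ra and Itga2b are below the wild-type mean in all 7 triple-knockout libraries, and haploinsufficient replicate 2, the shallowest library, departs most in low members.

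In the platelet and megakaryocyte group, 1 of 5 members fell in the triple knockout. Itga2b, the alpha chain of the fibrinogen receptor (chromosome 11 of mm10, 102453297 to 102469883), ranged from 10.3 to 16.5 CPM (median 12.5) in triple-knockout, from 3.49 to 20.1 CPM (median 17.7) in haploinsufficient and from 11.8 to 36.6 CPM (median 21.4) in wild-type libraries. A single wild-type library, replicate 4, lay within the triple-knockout range. Itga2b fell by 0.84 ± 0.21 (SE, log2) in the triple knockout (edgeR adjusted p = 0.0399). The haploinsufficient value of -0.54 ± 0.21 did not pass (edgeR adjusted p = 0.170). The call is near its threshold: it was lost in 10 of the 23 fits without 1 library, with edgeR adjusted p up to 0.116 without wild-type replicate 3, and the value stayed between -0.92 and -0.68. Itga2b was called in only 6 of 12 alternatives, with values from -0.97 to -0.62.

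Ppbp, the platelet basic protein, stood at 0.402 to 2.13 CPM (median 0.859) in triple-knockout, 0 to 3.59 CPM (median 1.44) in haploinsufficient and 0.768 to 7.14 CPM (median 2.27) in wild-type libraries. Its groups overlapped, and log2 fold changes of -1.61 ± 0.45 and -0.88 ± 0.44 for the triple-knockout and haploinsufficient hearts missed the threshold (edgeR adjusted p = 0.0782 and 0.300). DESeq2 called it in the triple knockout, at -1.61 (DESeq2 adjusted p = 0.0172). Gp9, a subunit of the von Willebrand factor receptor, had 1.64 ± 0.438, 1.70 ± 1.10 and 3.56 ± 1.71 CPM in the triple-knockout, haploinsufficient and wild-type hearts, with -1.11 ± 0.37 and -1.01 ± 0.37 (edgeR adjusted p = 0.178 and 0.154). Pf4, platelet factor 4, which lies beside Ppbp on chromosome 5, did not go with them: it stood at 5.08 ± 1.52, 5.91 ± 2.54 and 5.81 ± 1.97 CPM, with -0.18 ± 0.26 and 0.06 ± 0.26 (edgeR adjusted p = 0.873 and 0.931). Gp1bb, another subunit of the von Willebrand factor receptor, had 0.16 ± 0.40 and 0.21 ± 0.41 (edgeR adjusted p = 0.934 and 0.842). In GENCODE 90.6% of its windows are shared with other genes, mostly Sept5. In the gene model deposited with the counts Sept5 overlaps 28.4% of its exon bases on the same strand. The level of Gp1bb is therefore uncertain. Pf4 and Itga2b varied together over the 23 libraries after group and set means were taken off (Pearson r = 0.651, permutation p = 0.00122, adjusted 0.00488; Spearman rho = 0.564, permutation p = 0.00611, adjusted 0.0489), with r = 0.552 without the 2 libraries farthest from the median and 0.818 and 0.455 within the ID sets. Pf4 and C1qa had r = 0.198 (permutation p = 0.366, adjusted 0.395), and Kit and Itga2b r = 0.190 (permutation p = 0.395, adjusted 0.395).

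The stretch of 250 bases before the start of transcription was read for the members that fell, to show which motif letters they hold. Sequences are from RefSeq on GRCm38.p6, all on the minus strand and written 5′ to 3′ toward the gene. They lie at chr10:117292869-117293118 for Lyz1, chr10:117282273-117282522 for Lyz2, chr5:109558994-109559243 for Crlf2, chr19:61228419-61228668 for Csf2ra and chr11:102469884-102470133 for Itga2b. Capitals mark matches, on either strand, to GAGGAA (a core bound by ETS factors such as PU.1), AGATAA or TGATAA (bound by GATA factors) and TGTGGT (bound by RUNX factors).
Lyz1 promoter: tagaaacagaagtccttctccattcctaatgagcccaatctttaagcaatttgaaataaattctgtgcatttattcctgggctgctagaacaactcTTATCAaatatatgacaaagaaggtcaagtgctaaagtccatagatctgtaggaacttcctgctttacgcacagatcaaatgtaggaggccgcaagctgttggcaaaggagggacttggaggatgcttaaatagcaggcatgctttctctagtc
Lyz2 promoter: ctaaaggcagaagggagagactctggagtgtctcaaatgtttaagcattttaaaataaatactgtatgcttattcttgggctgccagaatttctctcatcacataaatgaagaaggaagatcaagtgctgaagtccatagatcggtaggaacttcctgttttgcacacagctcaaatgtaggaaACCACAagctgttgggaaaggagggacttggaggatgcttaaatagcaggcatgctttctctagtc
Crlf2 promoter: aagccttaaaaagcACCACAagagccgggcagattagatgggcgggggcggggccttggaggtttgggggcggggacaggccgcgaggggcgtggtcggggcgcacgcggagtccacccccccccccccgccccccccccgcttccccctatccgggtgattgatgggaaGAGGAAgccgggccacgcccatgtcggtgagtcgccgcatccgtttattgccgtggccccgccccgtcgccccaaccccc
Csf2ra promoter: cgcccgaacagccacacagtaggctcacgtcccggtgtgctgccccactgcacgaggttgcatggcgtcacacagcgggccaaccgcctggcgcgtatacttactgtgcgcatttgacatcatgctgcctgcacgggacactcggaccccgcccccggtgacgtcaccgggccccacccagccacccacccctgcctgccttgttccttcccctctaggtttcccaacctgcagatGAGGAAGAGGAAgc
Itga2b promoter: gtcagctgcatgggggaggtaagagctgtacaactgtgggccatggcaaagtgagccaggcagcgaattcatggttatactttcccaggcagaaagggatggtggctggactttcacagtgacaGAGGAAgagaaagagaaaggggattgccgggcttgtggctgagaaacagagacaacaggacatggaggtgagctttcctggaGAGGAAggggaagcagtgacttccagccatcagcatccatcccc
The word GAGGAA occurs in Crlf2, Csf2ra and Itga2b and in neither lysozyme window. The shorter GGAA within it was not marked, and both lysozyme windows hold it, as in taggaac. The GATA word occurs in Lyz1 only among these 5 and the RUNX word in Lyz2 and Crlf2. RefSeq promoters were found for 28 of the 35 members. Of these, 18 (64.3%) hold GAGGAA, where 25.9% of the 27025 genes in the table do. The RUNX word is in 8 (28.6%), against 15.9% of all genes. A GATA word is in 3 (10.7%), against 18.8%. The motifs do not overlap each other in letters, and a match is a description of the letters only.

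Neighbouring genes of the same pathways and cell types show how far the pattern extends. Of 28 further macrophage genes 24 were tested, of which 19 had positive triple-knockout log2 fold changes with a median of 0.27, and edgeR called 1 higher and 0 lower. The gene called was Mrc1, the mannose receptor of resident macrophages and of some endothelium, at 32.0 ± 9.04, 27.8 ± 4.73 and 18.7 ± 5.23 CPM in the triple-knockout, haploinsufficient and wild-type hearts, which rose by 0.77 ± 0.17 in the triple knockout (edgeR adjusted p = 0.0126). In the haploinsufficient hearts 12 of 24 were positive, with a median of 0.03. Of 10 endothelial genes 2 rose in the triple knockout, the hyaluronan receptor gene Lyve1 by 0.98 ± 0.24 and the scavenger receptor gene Stab2 by 1.74 ± 0.35 (edgeR adjusted p = 0.0338 and 0.00733), both also known from sinusoidal or lymphatic vessels and Lyve1 from some macrophages, and 0 fell. In the haploinsufficient hearts 0 of the 10 rose and 2 fell, the endothelial cadherin gene Cdh5 by 0.60 ± 0.11 and the angiopoietin receptor gene Tek by 0.45 ± 0.09 (edgeR adjusted p = 0.00392 and 0.00536), with 8 of 10 negative. The summed level of those 10 ran from 1177 to 1440 CPM in triple-knockout, from 985 to 1240 CPM in haploinsufficient and from 1128 to 1463 CPM in wild-type libraries, and their part in the Mrc1 result was not tested.

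Of 17 further platelet and megakaryocyte genes 12 were tested. In the triple knockout 9 had negative log2 fold changes with a median of -0.23, and edgeR called 0, with 3 at an unadjusted p under 0.05. In the haploinsufficient hearts all 12 were negative with a median of -0.33, and 1 fell, Itgb3, the beta chain that pairs with the product of Itga2b, by 0.56 ± 0.14 (edgeR adjusted p = 0.0326). Itgb3 stood at 22.9 ± 2.86, 19.2 ± 5.38 and 28.4 ± 4.83 CPM in the triple-knockout, haploinsufficient and wild-type hearts, and its triple-knockout value was -0.32 ± 0.14 (edgeR adjusted p = 0.373). The summed level of the 17 genes ran from 139.5 to 217.6 CPM in triple-knockout, from 101 to 161 CPM in haploinsufficient and from 156.5 to 188.5 CPM in wild-type libraries, with overlap. Its means were 170.8, 136.1 and 175.9 CPM in these groups. Most of that was Vwf alone, at means of 103.6, 75.2 and 94.1 CPM. The sum therefore says little about the other genes of the list.

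Cells other than macrophages and platelets that carry these genes were looked for by their markers. Of 16 granulocyte and mast cell genes only 2 passed the filter and 0 were called in any comparison, with summed levels of 11.5 to 21.4 CPM in triple-knockout, 7.38 to 14.7 CPM in haploinsufficient and 6.91 to 16.8 CPM in wild-type libraries. Among mast cell markers, summed counts over the triple-knockout, haploinsufficient and wild-type libraries, which differ in depth, were 23, 6 and 10 for Cpa3, 12, 2 and 20 for Cma1, 8, 0 and 12 for Tpsb2, and 1, 1 and 6 for Ms4a2. Among neutrophil markers they were 5, 2 and 1 for Elane, 8, 2 and 8 for S100a8, 136, 18 and 41 for S100a9, and 84, 23 and 15 for Ngp. These 8 genes did not pass the filter and were not tested. In mean CPM, these neutrophil markers were higher in triple-knockout than in wild-type hearts, on few counts, whereas Mpo and Ctsg were lower. Of the mast cell markers Cpa3 was higher, and Cma1, Tpsb2 and Ms4a2 were lower. Of 11 lymphoid genes 1 passed the filter, and Il7r, which encodes the chain that pairs with the product of Crlf2, had 28, 6 and 13 counts. The ligand of that receptor pair, Tslp, had 12, 6 and 21 counts, while Csf1, the ligand of the Csf1r product, stood at 25.7 ± 2.64, 23.8 ± 5.79 and 24.6 ± 3.93 CPM and was not called (edgeR adjusted p = 0.907 in the triple knockout and 0.945 in the haploinsufficient hearts). Erythroid genes, a rough guide to the blood in the hearts, summed to 4252 to 11520 CPM in triple-knockout, 3462 to 18750 CPM in haploinsufficient and 4990 to 17830 CPM in wild-type libraries. Most of that was Hbb-y, at means of 6471, 8186 and 8957 CPM in these groups. Hba-a1 and Hba-a2, near copies of each other, had no counts in any library, so the sum lacks them. Whether reads shared between these copies were left out of the counts was not tested. Their lack of counts is therefore not read as absence of their RNA. Of 9 tested, edgeR called 0 in any comparison. Against wild type 8 of the 9 were negative in the triple knockout, where 52.8% of all genes were positive, and 4 in the haploinsufficient hearts.

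Genes of lung, foregut, liver and thymus, tissues next to the heart that hold macrophages of their own, were higher in many GRK-deficient libraries. The 13 genes summed to 13.02 to 142.7 CPM (median 33.8) in triple-knockout, 18.2 to 238 CPM (median 46.2) in haploinsufficient and 7.41 to 47.1 CPM (median 16.1) in wild-type libraries. Of the 10 tested, 2 rose in the haploinsufficient hearts, Foxf1 by 4.12 ± 1.05 and Cldn6 by 4.23 ± 1.13 (edgeR adjusted p = 0.0353 and 0.0433), and 0 in the triple knockout, where 5 had an unadjusted p under 0.05. Without the 9 libraries of a high score, 3 members were still called in the triple knockout: Lyz2 at -1.08, Crlf2 at -1.58 and Itga2b at -0.84 (edgeR adjusted p = 0.00165, 0.0445 and 0.0282). Csf2ra then stood at -0.72 and was not called (edgeR adjusted p = 0.0548). In the haploinsufficient hearts Lyz1 at -3.36 and Lyz2 at -1.496 were called without those libraries (edgeR adjusted p = 0.0127 and 0.000447), and Csf2ra at -0.64 was not (edgeR adjusted p = 0.150). That fit left out 5 of the 8 haploinsufficient libraries. Among them was replicate 4, just over the limit at a score of 1.58 and the highest haploinsufficient library for Lyz2. These haploinsufficient values therefore rest on few libraries, and the part of the score in them was not tested.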

How the data were processed

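Whole-heart RNA was depleted of ribosomal RNA and sequenced from a single end without strand, per the labels' protocols. The authors deposited a count table of reads per gene and a table of FPKM values. The submitters' processing notes name TopHat2 (version 2.0.10), Bowtie2, HTSeq, Cufflinks (version 2.1) and mm10.

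A quasi-likelihood fit of the counts of all 23 libraries was made in R 4.3.3 by edgeR 4.0.16, with terms for group and library ID set, TMM scaling and edgeR's expression filter (minimum count 10, minimum total 15). The 59 features of the targeted genes and Cre were left out, and 13941 genes were tested. Each comparison had its own Benjamini-Hochberg adjustment of two-sided p-values, and genes under 0.05 were called. CPM uses TMM-scaled library sizes. The figure of all libraries adds 1 to CPM. Correlations used log2 CPM with a prior count of 1, after group and set means were taken off, with 100000 resamples for each permutation p, two-sided. The deviations were permuted freely over all 23 libraries. This does not account for the means taken off, so these p-values tend to be too small, by an amount not estimated. Without strand, overlapping and antisense genes cannot be told apart. Shared windows of 50 bases were counted on GENCODE transcripts of GRCm38, not on the gene model deposited with the counts.

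Alternatives were DESeq2 (version 1.42.0), limma (version 3.58.1) on log2 FPKM plus 0.1 or plus 1, for genes of at least 0.5 FPKM in 7 libraries, other scaling, no filter, no set term, the replicate number as a block, fewer libraries and a term for lung, foregut, liver and thymus genes. The members and the gene lists were chosen with earlier results of these data known. All members are named. From other lists, called genes with the smallest p (up to 4 per list) and defining markers near a count of 0 are named. One item this rule picks is not reported here. Csf1, Tslp, Il7r, S100a9, Ngp, Ctsg, Hbb-y and Vwf were named in addition, after their values were seen. On simulated data for the triple knockout against wild type, with 13941 genes, 50 genes were changed at each size. The fit recovered 60% of genes changed 1.5-fold and 98% of those changed 2-fold, with 7 false calls among 186. The simulation gave every gene the same spread and no ID set effect, and drew the changed genes from all levels. It therefore does not give the recovery for low, variable members such as Gp9, 2.16-fold lower in the triple knockout and not called (edgeR adjusted p = 0.178). Library pairs of a group differed by at least 5.20 in chi-square per degree of freedom, so none was counted as a repeat.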

Additional observations from a re-analysis of the deposited data

Results flagged for a closer look

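In 10 of 105 combinations of member and group a single library stood apart from the rest of its group by Dixon's test, which compares the gap to the nearest library with the whole range, at its 95% critical value. For normally distributed values chance alone gives about 1 in 20, and CPM values of low genes are skewed, so the rate expected here is not known. All 10 were the highest of their group. In the haploinsufficient group they were Aif1 in replicate 2 (9.31 CPM), Cd14 in replicate 1 (3.73 CPM), Mpo in replicate 8 (0.572 CPM), and both Lyz2 (27.1 CPM) and Cybb (4.25 CPM) in replicate 4. In the triple knockout they were Csf2ra (19.1 CPM) and Coro1a (23.4 CPM) in replicate 1 and Pf4 in replicate 4 (8.35 CPM). In wild type they were Pf4 in replicate 3 (10.1 CPM) and Cd74 in replicate 7 (5.14 CPM). Haploinsufficient replicate 2 is the shallowest library.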

How the results depend on the processing

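No member reversed a call under any alternative. The number of members called in the triple knockout against wild type was 5, and 2 with the replicate number as a block, 0 in IDs 1 to 12 alone, 1 in IDs 19 to 30 alone, and 3 without libraries of a high lung, foregut, liver and thymus score, with that score as a term, and by limma on log2 FPKM with either pseudocount. Each ID set alone holds 11 or 12 libraries by construction. Leaving out 1 library gave 2 to 5, with 2 without triple-knockout replicate 2, 3 or 7 and 3 without triple-knockout replicate 5 or 6 or wild-type replicate 1 or 6. Csf2ra lost its call in 11 of these fits (edgeR adjusted p up to 0.0999) and Itga2b in 10. Over the other alternatives, the triple-knockout call was present in 11 of 13 for Lyz2, 9 of 13 for Lyz1 and 10 of 12 for Crlf2. For Csf2ra and Itga2b it was present in 6 of 12 each. In the haploinsufficient hearts against wild type the number was 2, and 0 in IDs 1 to 12 alone and with the score as a term, and 2 to 3 without 1 library. Between the GRK-deficient groups it was 0, and 2 by DESeq2, 1 without the filter and 2 with the score as a term, and 0 to 2 without 1 library. The blocked fit gave 2 and 0 in these comparisons. Same-numbered libraries deviated together in 5 of 22 pairs (correlations from -0.195 to 0.467, with 0.1 as the limit), so the numbers were not read as a pairing. Counts over all genes moved as well: 164 for the triple knockout against wild type became 290 with DESeq2, 295 with only those groups fitted and 50 and 52 within the ID sets, and 107 (without triple-knockout replicate 3) to 185 without 1 library. For the haploinsufficient hearts 318 became 561 with DESeq2, 199 with the block, 20 and 183 within the ID sets, 90 without high-score libraries and 189 with the score as a term, and ran from 152 without wild-type replicate 8 to 614 without haploinsufficient replicate 3, with shifts over 1.5 times also without wild-type replicates 1, 2, 6 and 7 and haploinsufficient replicates 1, 7 and 8. Between the GRK-deficient groups 55 became 278 with DESeq2, 88 without the filter, 1 with only those groups fitted, 168 and 1 within the ID sets, 150 with the score as a term, and 0 with the block, without high-score libraries and by limma, and ran from 10 without triple-knockout replicate 3 to 414 without haploinsufficient replicate 3, with shifts over 1.5 times also without haploinsufficient replicates 1, 2, 4, 7 and 8 and triple-knockout replicates 1, 2, 5, 6 and 7. The cause of these shifts was not tested. Members under about 2 CPM rest on few counts, and changes in them were not detectable at this depth unless large.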
